A study of Drosophila melanogaster with 21 samples.

Results

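Jun N-terminal kinase (JNK) signalling was blocked in Ras-driven tumours of the larval eye-antennal disc of Drosophila melanogaster. The comparison rests on the 6 arrays whose titles name RasACT in scrib mutant tissue, out of 21 arrays in the series: 3 arrays of scrib-+RasACT+bskDN discs and 3 of scrib-+RasACT discs. Both genotypes carried clones that were mutant for the polarity gene scribble (scrib1 allele) and expressed RasACT, the V12 form of Ras, together with a membrane-bound GFP, and the first also expressed bskDN, a dominant-negative form of Basket (bsk), the Drosophila JNK. Clones were made by the MARCM method, in which a recombinase driven by the eyeless promoter makes mutant cells that alone express the UAS transgenes through a tubulin-driven GAL4, so each disc also held wild-type cells. Discs were dissected from last-instar larvae of a w1118 background, grown on standard medium, 5 days after egg deposition. The same block of JNK in 6 arrays of Notch-driven tumours (scrib-+NACT+bskDN against scrib-+NACT) and 3 arrays of an FRT control, mosaic discs with none of these alterations, were used only for comparison. How many discs were pooled for a Ras or Notch array, and whether the 3 arrays of a genotype came from separate collections of larvae, was not given in the sources used here, and p-values therefore cover no more than the differences among these arrays, which may be technical.

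JNK is the last kinase of a stress-activated cascade that starts at the TNF ligand Eiger and its receptors, passes through MAP3 kinases and the MAP2 kinase Hemipterous, and ends on the AP-1 transcription factors Jra and Kayak (Drosophila Jun and Fos). In disc epithelia it is known for driving wound closure, regeneration and the death of damaged cells, and its target puckered encodes a phosphatase that shuts the kinase off again. In cells that lack scrib and carry activated Ras, JNK is known to promote growth and invasion instead of death, partly through secreted signals such as the Unpaired cytokines and the relaxin-like hormone Ilp8, which delays pupariation.

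Every value below is a GCRMA signal on the log2 scale, on which the lowest value in the file is 2.17 and a change of 1 is a 2-fold difference. Changes are scrib-+RasACT+bskDN minus scrib-+RasACT, so a negative change means less RNA when JNK was blocked, and the error beside a change is its standard error in a limma fit of the 12 Ras and Notch arrays. A gene was called when its Benjamini-Hochberg adjusted p over 18766 probe sets was below 0.05 and its change exceeded 1 in size. Signals of different genes come from different probes and are not compared with each other, and where a group sits at the floor the size of a change is set in part by how GCRMA treats background. Because the discs are mosaic, less RNA per cell and fewer cells of a kind cannot be told apart.

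The bskDN transgene was visible in the bsk probe sets, which were left out of all tests because they read transgene and endogenous RNA alike. Probe set 1625533_at gave 15.81, 15.79 and 15.76 in scrib-+RasACT+bskDN discs, against 11.94, 12.02 and 11.75 in scrib-+RasACT discs and 11.64 ± 0.12 in the FRT control (SD, n = 3). Probe set 1626404_a_at averaged 16.07 ± 0.04 in scrib-+RasACT+bskDN discs and 11.28 ± 0.14 in scrib-+RasACT discs (SD, n = 3 each), and the remaining bsk probe set stayed between 2.21 and 2.78. RNA of scrib was measured in both groups: probe set 1633904_at gave 11.62, 11.52 and 11.45 in scrib-+RasACT+bskDN discs, and 10.74, 10.83 and 11.69 in scrib-+RasACT discs, against 11.71 ± 0.12 in the control. Genes that define the eye-antennal disc were well expressed in both groups. The retinal gene eya gave 13.06, 13.11 and 13.20 in scrib-+RasACT+bskDN discs and 12.30, 12.47 and 12.45 in scrib-+RasACT discs, and the antennal gene Dll 9.07, 9.36 and 9.45 with bskDN and 8.14, 8.51 and 9.29 without it.

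The arrays were alike in scale, with 50.9 to 51.5% of probe sets under 2.3 log2 on each of the Ras, Notch and control arrays. One Ras array stood apart: scrib-+RasACT replicate 3 correlated at r = 0.968 and 0.974 with replicates 1 and 2 over 7109 probe sets with a mean over 6, whereas these correlated at 0.993 with each other, and limma gave it the lowest array weight of the 12 (0.171). Its departure from the mean of the other 2 correlated with the departure of the FRT control from that same mean (r = 0.618 across probe sets, which are not independent). Subtracting the same mean on both sides by itself raises r, so this value cannot decide whether the array lay towards the control. Markers of other tissues also moved between arrays, as the plot of marker levels shows. Of 8 fat body markers measured, 0 were called in limma and 4 had higher means with bskDN, through 2 arrays: Lsp2, a larval storage protein, gave 5.59, 12.88 and 12.33 in scrib-+RasACT+bskDN discs and 5.11, 5.14 and 5.27 in scrib-+RasACT discs. Fbp2 gave 5.92, 10.66 and 11.58 with bskDN and 4.50, 4.41 and 4.07 without it, so the signal was high on scrib-+RasACT+bskDN replicates 2 and 3 and low on replicate 1. Both genes passed when replicate 1 was left out (adjusted p = 0.00547 for Lsp2 and 0.00203 for Fbp2), and 4 of the 8 markers had an unadjusted p under 0.05. The log2 of the summed signal of 18 haemocyte (blood cell) markers was 11.78 to 12.996 in scrib-+RasACT+bskDN discs and 14.43 to 14.93 in scrib-+RasACT discs. A single gene, vir-1, made up a large part of this sum in scrib-+RasACT discs, so it does not stand for the list. Of the 18 markers, 3 were called lower in limma. The log2 of the summed signal of the 12 muscle markers was 10.40 to 11.80 with bskDN and 12.04 to 12.48 without it. The part of these tissues in the results below was not tested except where a value is given.

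**Figure D1:**
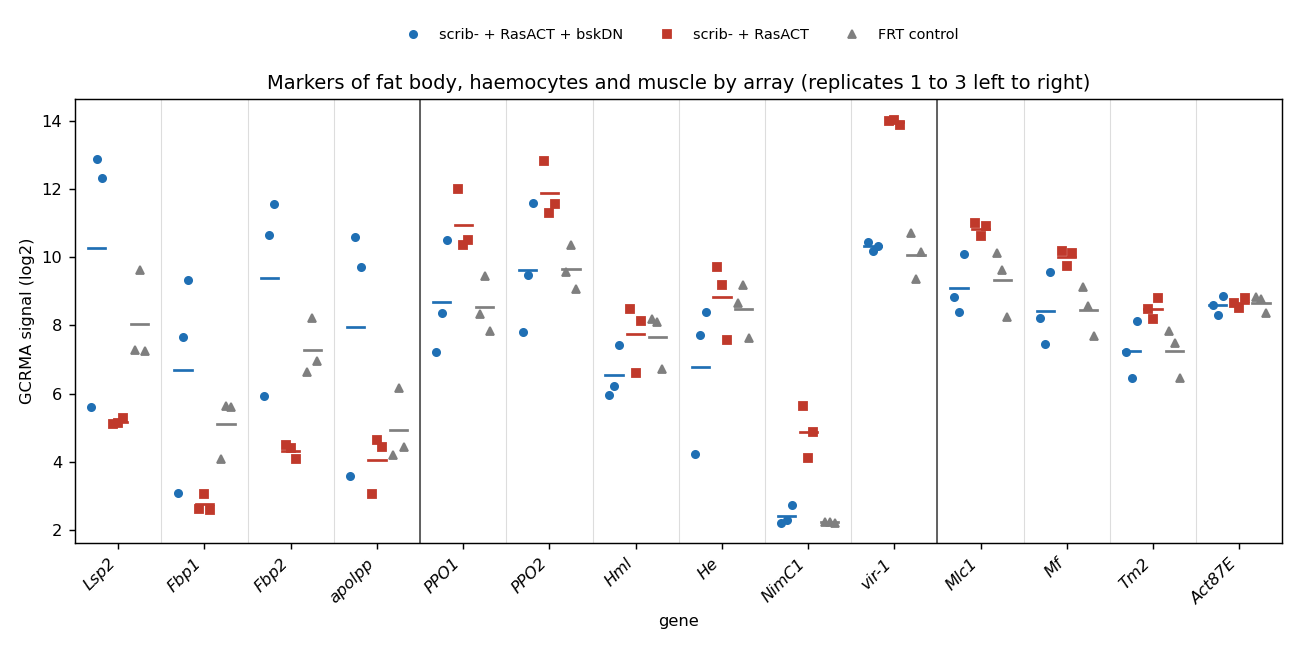
GCRMA signals (log2, vertical axis) of markers of fat body (left), haemocytes (middle) and muscle (right) on each array. Points are single arrays, replicates 1 to 3 from left to right, and horizontal bars are group means for scrib-+RasACT+bskDN, scrib-+RasACT and the FRT control. Lsp2 stood at 5.59, 12.88 and 12.33 in scrib-+RasACT+bskDN replicates 1 to 3, and vir-1 at 10.45, 10.17 and 10.33 on the same arrays.

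With JNK blocked, 790 of 18766 probe sets changed (4.21%), 334 lower (1.78%) and 456 higher (2.43%). Among genes with a probe set of their own name, 272 of 11980 were lower (2.27%) and 353 higher (2.95%), which together were 625 genes (5.22%). Of the 625, 237 (37.9%) are known by a CG number alone, as are 43.6% of all 11980. Without scrib-+RasACT replicate 3 the fit called 972 probe sets, which included 742 of the 790. A fit of the 6 Ras arrays alone called 422. The plot of called members per list shows how these calls were spread over groups of genes, with 7 falls among genes of the JNK response and 13 rises among photoreceptor and neuronal genes. The count of each list below stands beside 2.27% lower and 2.95% higher over all named genes.

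**Figure D2:**
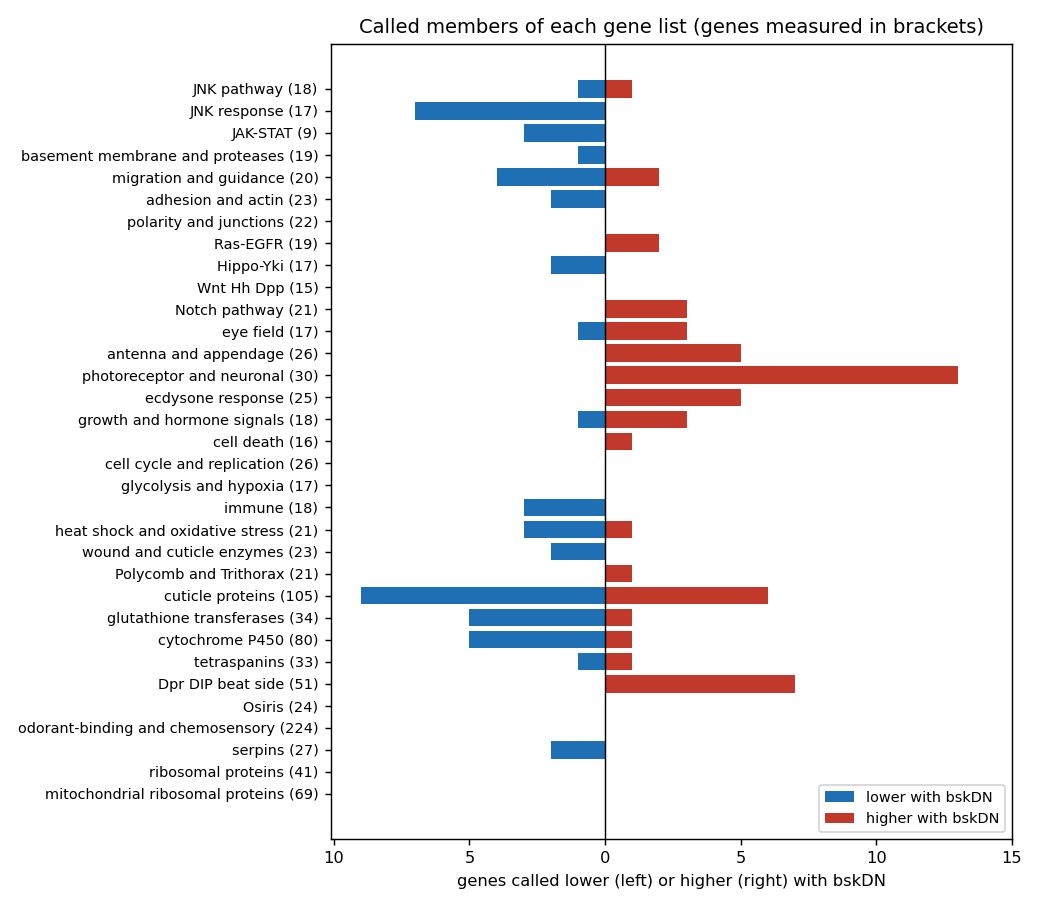
Number of genes called lower (bars to the left) or higher (bars to the right) with bskDN in scrib-+RasACT discs, for 33 lists, with the number of measured genes in brackets. The JNK response list had 7 of 17 genes lower and 0 higher, and the photoreceptor and neuronal list 0 lower and 13 of 30 higher.

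The JNK cascade itself had 1 gene lower and 1 higher of 18 measured, beside 5.22% called over all named genes, and a median change of 0.15 against 0.00 over all named genes. The gene that fell was puc, the JNK phosphatase, which gave 9.63, 9.74 and 9.57 in scrib-+RasACT+bskDN discs and 10.96, 11.07 and 11.41 in scrib-+RasACT discs. Its groups did not overlap, as was so for 3589 of all 18766 probe sets (19.1%), its change was -1.50 ± 0.18 (adjusted p = 0.00128), and the control lay between them at 10.30 ± 0.47 (SD, n = 3). The gene that rose was wgn, a TNF receptor, with 9.44, 9.48 and 9.24 in scrib-+RasACT+bskDN discs and 8.22, 8.38 and 8.21 in scrib-+RasACT discs, a change of 1.12 ± 0.11 (adjusted p = 0.000457). The ligand egr was higher on every array with bskDN, at 10.12, 9.99 and 10.35 against 9.29, 9.12 and 9.31 without it, but its change of 0.92 ± 0.14 stayed under the threshold for size (adjusted p = 0.00397). The other TNF receptor, grnd, had a change of -0.69 ± 0.20 (adjusted p = 0.0744). Among the kinases, hep had a change of 0.21, slpr of 0.15, wnd of 0.60 and Mkk4 of 0.15, and none of these was called. The AP-1 genes Jra and kay had changes of -0.37 ± 0.20 and -0.77 ± 0.44 (adjusted p = 0.382 and 0.428), and in neither did the groups overlap.

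Of 20 genes listed as responding to JNK, 17 were measured, of which 7 were lower with the block and 0 higher, with a median of -0.67. These were puc, Ets21C, cher, Ilp8, upd1, upd2 and Pvf1. The list was drawn up with earlier results of these arrays known, so the count is not independent evidence of its direction. The largest fall among them was that of Ets21C, an ETS-family transcription factor, which gave 3.19, 3.16 and 2.96 in scrib-+RasACT+bskDN discs and 7.60, 7.99 and 7.73 in scrib-+RasACT discs. It sat near the floor on all 3 arrays with bskDN and its change was -4.67 ± 0.19 (adjusted p = 3.5e-06), while the control averaged 3.91 ± 0.98 (SD, n = 3). The actin cross-linker cher (filamin) fell as well, with 9.17, 9.11 and 9.81 in scrib-+RasACT+bskDN discs and 10.91, 10.83 and 11.48 in scrib-+RasACT discs and a change of -1.71 ± 0.21 (adjusted p = 0.0014). It did not pass in the fit of the 6 Ras arrays alone (adjusted p = 0.0711). Not every listed gene followed. Atf3, a bZIP factor, gave 9.08, 8.73 and 9.08 with bskDN and 8.69, 8.67 and 9.66 without, a change of -0.04 ± 0.29 (adjusted p = 1), whereas in Notch tumours it changed by -2.72, and the difference of 2.68 ± 0.41 was called (adjusted p = 0.00496). The serine protease homologue scaf and the nuclear receptor ftz-f1 were lower on every array with bskDN, and their changes of -0.67 ± 0.16 and -0.84 ± 0.13 did not reach 1, but a further probe set of ftz-f1 was called, at -1.12 (adjusted p = 0.0122). rgn and pain had positive changes that stayed below 1 (0.75, adjusted p = 0.0244, and 0.85, adjusted p = 0.0185). The remaining measured members Gadd45, Traf4, Duox, Zasp52 and jub lay between -0.47 and 0.36. Mmp1, upd3 and rpr were listed but not read, because no tested probe set carried any of these symbols alone. The paper lists probe sets of Mmp1 on this type of array. Without scrib-+RasACT replicate 3 the list again had 7 genes lower, and pain passed (adjusted p = 0.00445).

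**Figure D3:**
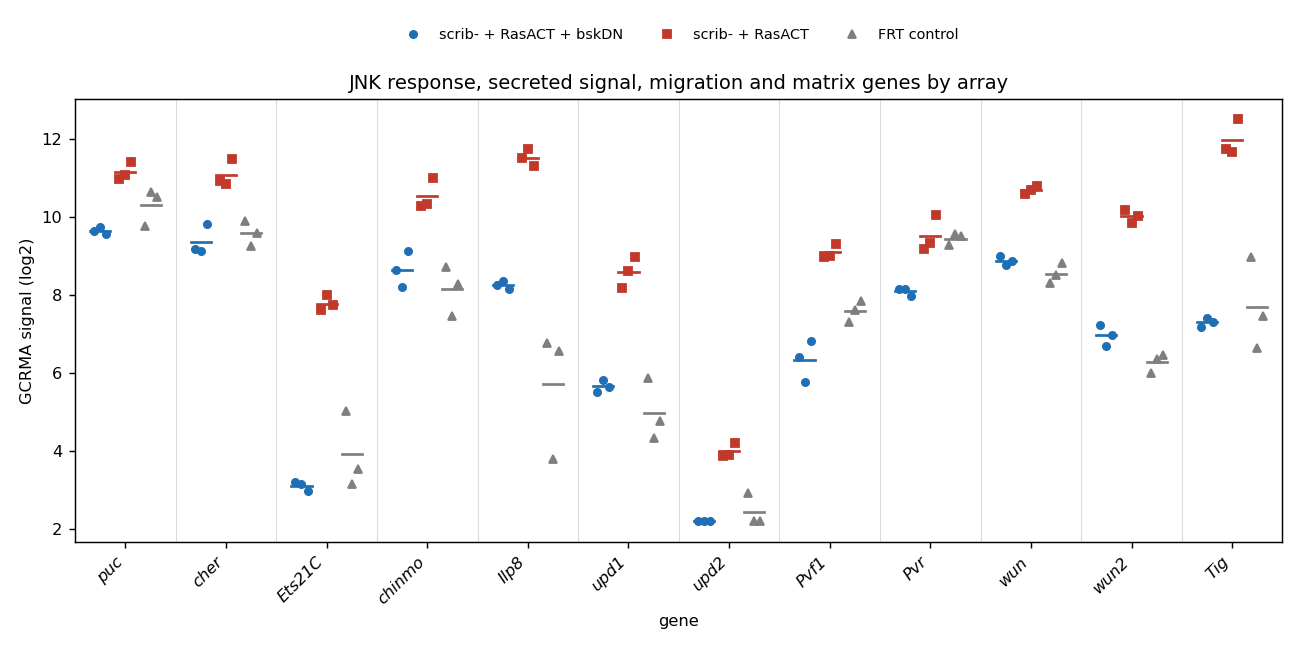
GCRMA signals (log2, vertical axis) of 12 genes that were lower with bskDN, one gene per column. Points are single arrays and bars group means for scrib-+RasACT+bskDN, scrib-+RasACT and the FRT control. In none of the 12 did the 3 arrays with bskDN overlap the 3 without it, as for Ets21C at 3.19, 3.16 and 2.96 with bskDN against 7.60, 7.99 and 7.73 without it. The genes shown were picked from those called lower, and 19.1% of all 18766 probe sets had no overlap in either direction.

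Secreted signals were among the genes that fell. Ilp8, the hormone that holds larvae back from pupariation, gave 8.25, 8.35 and 8.14 in scrib-+RasACT+bskDN discs and 11.50, 11.74 and 11.30 in scrib-+RasACT discs. The change was -3.27 ± 0.10, a 9.62-fold lower signal (adjusted p = 7.96e-07), but the level with bskDN remained above that of every control array (6.76, 3.79 and 6.56). upd1, a ligand of the JAK-STAT pathway, gave 5.50, 5.83 and 5.65 in scrib-+RasACT+bskDN discs and 8.18, 8.62 and 8.97 in scrib-+RasACT discs, a change of -2.93 ± 0.19 (adjusted p = 5.19e-05), with the control at 5.86, 4.32 and 4.76. Another ligand of that pathway, upd2, was at the floor on all arrays with bskDN (2.19, 2.19 and 2.19) and at 3.86, 3.89 and 4.21 without it (adjusted p = 0.0124). Of the 9 JAK-STAT genes measured the other that fell was chinmo, a BTB-zinc finger factor known as a target of the pathway, at 8.64, 8.19 and 9.11 with bskDN against 10.26, 10.31 and 10.996 without it and a change of -1.88 ± 0.25 (adjusted p = 0.00205), which did not pass on the 6 Ras arrays alone (adjusted p = 0.0818). The receptor, kinase and STAT genes on the list were not called. Pvf1, a PDGF- and VEGF-like growth factor, gave 6.40, 5.75 and 6.82 in scrib-+RasACT+bskDN discs and 8.96, 9.002 and 9.30 in scrib-+RasACT discs, a change of -2.76 ± 0.23 (adjusted p = 0.000159). Its receptor Pvr fell with it, at 8.16, 8.16 and 7.98 with bskDN against 9.19, 9.32 and 10.05 without it (-1.42 ± 0.21, adjusted p = 0.0033), though not on the 6 Ras arrays alone (adjusted p = 0.0845). For Pvf1 and Pvr the arrays with bskDN lay below the control means of 7.59 and 9.44, unlike Ilp8 and upd1.

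Among 20 genes of migration and guidance, 4 were lower and 2 higher. The higher count depended on the arrays: it was 6 without scrib-+RasACT replicate 3, 1 without scrib-+RasACT replicate 1 or 2 or scrib-+RasACT+bskDN replicate 1, and 0 without scrib-+RasACT+bskDN replicate 2 or on the 6 Ras arrays alone. Besides Pvf1 and Pvr, the genes that were lower were the lipid phosphate phosphatases wun2 and wun, which steer migrating germ cells. wun2 gave 7.22, 6.70 and 6.96 in scrib-+RasACT+bskDN discs and 10.18, 9.85 and 10.02 in scrib-+RasACT discs (-3.06 ± 0.14, adjusted p = 7.58e-06) and wun 8.99, 8.77 and 8.88 with bskDN against 10.57, 10.67 and 10.78 without it (-1.80 ± 0.11, adjusted p = 3.28e-05). In both the control, at 6.28 ± 0.24 and 8.54 ± 0.25 (SD, n = 3 each), was close to the discs with bskDN. The 2 FGF ligands ths and pyr rose by 1.56 ± 0.33 and 1.24 ± 0.24 (adjusted p = 0.0195 and 0.013), but both calls ended when single arrays were left out. That of ths ended without scrib-+RasACT+bskDN replicate 1 or 2 or scrib-+RasACT replicate 1 (adjusted p = 0.0688, 0.0762 and 0.0638), and that of pyr without scrib-+RasACT+bskDN replicate 2 or scrib-+RasACT replicate 2 (adjusted p = 0.0516 and 0.0528). Of 19 measured genes of the basement membrane and its proteases 1 was called, Tig (Tiggrin), an extracellular ligand of integrins. Tig gave 7.18, 7.40 and 7.30 in scrib-+RasACT+bskDN discs and 11.75, 11.66 and 12.49 in scrib-+RasACT discs, a change of -4.67 ± 0.20 (adjusted p = 4.63e-06). The protease gene Mmp1 was also on the list but was not read. The type IV collagen genes Col4a1 and vkg, which haemocytes and fat body make, were not called, at -0.91 ± 0.48 and -1.06 ± 0.52 (adjusted p = 0.376 and 0.313), nor were the laminin chains LanA, LanB1 and LanB2, at 0.24, 0.28 and 0.31. In the actin and adhesion list of 23 genes, cher and the Golgi kinase gene fj were lower and 0 were higher, with 4 lower without scrib-+RasACT replicate 2. The call of fj (-1.02 ± 0.17, adjusted p = 0.00537) was lost, as its change then fell under 1, without scrib-+RasACT replicate 3 (adjusted p = 0.00845) or scrib-+RasACT+bskDN replicate 1 (adjusted p = 0.012). Arpc3B, a subunit of the actin-branching Arp2/3 complex that was on no list and was picked after its values were seen, averaged 3.70 ± 0.42 in scrib-+RasACT+bskDN discs and 7.64 ± 0.62 in scrib-+RasACT discs (SD, n = 3 each), without overlap (adjusted p = 0.000485 in limma).

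The haemocyte list had 3 of 18 genes lower and 0 higher, with a median of -1.36. Without scrib-+RasACT+bskDN replicate 3, 5 were lower, and on the 6 Ras arrays alone 2 were, since NimC1 did not pass there (adjusted p = 0.0831). vir-1 gave 10.45, 10.17 and 10.33 in scrib-+RasACT+bskDN discs and 14.002, 14.04 and 13.88 in scrib-+RasACT discs, a change of -3.66 ± 0.19 (adjusted p = 1.7e-05), and the control averaged 10.08 ± 0.68 (SD, n = 3). NimC1, a phagocytosis receptor of plasmatocytes, was at 2.20, 2.28 and 2.73 with bskDN and 5.64, 4.11 and 4.86 without (adjusted p = 0.00216), and atilla, which marks lamellocytes, at 7.17, 7.05 and 7.50 with bskDN and 9.34, 9.29 and 8.81 without it (adjusted p = 0.00449). PPO1 and PPO2, which mark crystal cells, overlapped between groups: PPO2 gave 7.81, 9.47 and 11.58 in scrib-+RasACT+bskDN discs and 12.81, 11.29 and 11.55 in scrib-+RasACT discs (adjusted p = 0.152, or 0.0123 without scrib-+RasACT+bskDN replicate 3). Hml, which defines larval haemocytes, gave 5.97, 6.23 and 7.42 with bskDN and 8.49, 6.61 and 8.14 without it (adjusted p = 0.312). Of the muscle markers 2 of 12 were lower, Mlc1 (-1.74 ± 0.37, adjusted p = 0.0188) and Mlc2 (-2.42 ± 0.52, adjusted p = 0.0193), and both calls ended without scrib-+RasACT+bskDN replicate 1 (adjusted p = 0.069 and 0.053) or scrib-+RasACT replicate 1 (0.0688 and 0.0545), that of Mlc2 also without scrib-+RasACT replicate 2 (0.0563). Without scrib-+RasACT+bskDN replicate 3, 5 of the 12 were lower. Act87E, a muscle actin, had a change of -0.07 ± 0.30 (adjusted p = 1).

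The detoxification and stress genes that moved were mostly lower with bskDN. Over all named genes 2.27% were lower and 2.95% higher, together 5.22%. Of 34 glutathione transferase genes 5 were lower and 1 higher, and the largest change was that of GstD3, with 3.75, 3.96 and 4.82 in scrib-+RasACT+bskDN discs and 9.60, 9.34 and 9.41 in scrib-+RasACT discs and a change of -5.27 ± 0.25 (adjusted p = 8.66e-06). The control, at 3.90 ± 1.13 (SD, n = 3), was as low as the discs with bskDN. GstE6 was 4.78-fold lower (-2.26 ± 0.18), GstE5 4.2-fold (-2.07 ± 0.15) and GstE1 3.04-fold (-1.60 ± 0.14), while GstZ2 rose, at 8.43, 8.49 and 8.65 with bskDN against 7.37, 7.30 and 6.98 without it (adjusted p = 0.000121). Members of these clusters are similar in sequence, so their probe sets may share signal. Of 80 cytochrome P450 genes 5 were lower and 1 higher, led by Cyp6a20 at 4.36, 2.72 and 2.50 with bskDN against 6.19, 6.15 and 7.35 without it (adjusted p = 0.00322), a call not made on the 6 Ras arrays alone, where 0 of the 80 were lower. Without scrib-+RasACT replicate 1, 3 were lower, and without scrib-+RasACT+bskDN replicate 1, 3 were higher. In the immune list 3 of 18 were lower, led by the serpin nec (necrotic), a negative regulator of Toll signalling, at 2.26, 2.99 and 2.48 with bskDN against 4.79, 5.34 and 6.03 without it (-2.81 ± 0.31, adjusted p = 0.000745). The other 2, spz and PGRP-LA, lost their calls when single arrays were left out. That of spz ended without scrib-+RasACT+bskDN replicates 1 or 2, scrib-+RasACT replicates 1 or 3, scrib-+NACT+bskDN replicates 1, A or B or scrib-+NACT replicates 2 or A (adjusted p = 0.0582 to 0.144, changes of -1.32 to -1.13). That of PGRP-LA ended without scrib-+RasACT+bskDN replicates 1 or 3 or scrib-+RasACT replicates 1 or 2 (adjusted p = 0.0665 to 0.0721, changes of -1.20 to -0.95). Spn47C, another serpin, gave 5.91, 4.87 and 4.91 in scrib-+RasACT+bskDN discs and 8.93, 9.16 and 8.82 in scrib-+RasACT discs (adjusted p = 0.000393), and Spn55B 8.42, 8.55 and 8.46 with bskDN against 10.03, 10.09 and 10.12 without it (adjusted p = 9.03e-05). Hsp27, a small heat shock protein gene, went the other way, with 14.63, 14.67 and 14.14 in scrib-+RasACT+bskDN discs and 13.05, 12.71 and 13.36 in scrib-+RasACT discs (1.44 ± 0.24, adjusted p = 0.00606), a call not made on the 6 Ras arrays alone (adjusted p = 0.0701). The chitinase-like growth factors Idgf4 and Idgf2 were lower, Idgf4 at 10.96, 10.86 and 11.32 with bskDN against 12.33, 12.27 and 12.46 without it (adjusted p = 0.000424). The call of Idgf2 (-1.28 ± 0.32, adjusted p = 0.0378) ended without scrib-+RasACT+bskDN replicates 1 or 2, scrib-+RasACT replicates 1 or 2 or scrib-+NACT+bskDN replicates 1, A or B (adjusted p = 0.0637 to 0.135, changes of -1.33 to -1.15).

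Many of the largest falls were in genes with no part in these lists. CG13215, known by its CG number alone, had the largest: 2.42, 2.17 and 2.42 in scrib-+RasACT+bskDN discs and 11.70, 11.64 and 11.56 in scrib-+RasACT discs (-9.30 ± 0.27, adjusted p = 4.07e-07), with the control between them at 4.46 ± 2.27 (SD, n = 3). Zip102B, a zinc transporter of the ZIP family, gave 4.13, 3.85 and 4.07 in scrib-+RasACT+bskDN discs and 9.94, 9.78 and 9.67 in scrib-+RasACT discs (-5.78 ± 0.11, adjusted p = 2.63e-08). In both genes the groups did not overlap, which was a condition for a place among the 15 largest falls. The cuticle protein gene Cpr49Ad was at the floor on all arrays with bskDN (2.17, 2.19 and 2.17), at 7.90, 7.46 and 7.45 without it (adjusted p = 2.63e-08), and at the floor again in the control (mean 2.17). CG6753, CG14795 and CG31370 followed the same pattern, at 3.16, 2.83 and 2.81 with bskDN against 8.53, 8.45 and 8.02 without it for CG6753, changes of -4.64 and -4.82 for the other 2, and control means of 2.83, 2.36 and 2.46. Lst (Limostatin), a peptide hormone that restrains insulin release, gave 4.33, 6.20 and 6.27 in scrib-+RasACT+bskDN discs and 10.26, 10.10 and 10.15 in scrib-+RasACT discs (-4.57 ± 0.66, adjusted p = 0.00289). CG10559, CG7299, Jhbp7 and aspr had changes of -4.52, -4.48, -4.35 and -4.26, with aspr at 5.99, 5.86 and 6.46 with bskDN against 10.29, 10.24 and 10.58 without it. The 15 largest falls are completed by GstD3, Tig and Ets21C and by Cpr47Eb (-4.28 ± 1.03, adjusted p = 0.0322), whose call ended without scrib-+RasACT+bskDN replicates 1, 2 or 3, scrib-+RasACT replicates 1, 2 or 3 or scrib-+NACT+bskDN replicates 1, A or B (adjusted p = 0.0535 to 0.11, changes of -4.62 to -3.89).

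Cuticle protein genes moved both ways. Of 105 measured, 13 had a mean over 6 log2 in either group, 9 were lower and 6 higher. Over all named genes 2.27% were lower and 2.95% higher. Besides Cpr49Ad, Cpr49Ag fell, at 2.31, 2.19 and 2.20 with bskDN against 6.57, 5.44 and 5.44 without it (adjusted p = 0.000228), and so did Lcp65Ac at 5.50, 6.70 and 7.23 with bskDN against 9.69, 9.33 and 9.61 without it (adjusted p = 0.00642, or 0.0653 on the 6 Ras arrays alone), whereas Cpr65Ec was at 7.88, 7.73 and 6.93 with bskDN and on the floor at 2.17, 2.17 and 2.17 without it (adjusted p = 2.33e-06). Lcp65Af was lower in Ras discs, at 3.60, 4.22 and 6.26 with bskDN against 7.75, 7.63 and 7.24 without it, a call (-2.85 ± 0.57, adjusted p = 0.0143) that ended without scrib-+RasACT replicate 1, scrib-+RasACT replicate 2 or scrib-+RasACT+bskDN replicate 2 (adjusted p = 0.054, 0.0529 and 0.0586).

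The genes that were higher with bskDN included regulators of appendage and head identity. In the antennal and appendage list 5 of 26 were higher and 0 lower, beside 2.95% higher and 2.27% lower over all named genes. al (aristaless), a homeobox gene of the distal antenna, gave 10.55, 10.83 and 10.60 in scrib-+RasACT+bskDN discs and 7.39, 7.48 and 7.84 in scrib-+RasACT discs, a change of 3.09 ± 0.14 (adjusted p = 6.1e-06), and its level with bskDN exceeded all 3 control arrays (8.27, 8.79 and 8.73). bab2, a BTB factor of the antennal disc, gave 10.45, 10.58 and 10.13 in scrib-+RasACT+bskDN discs and 7.81, 7.73 and 7.93 in scrib-+RasACT discs (2.56 ± 0.13, adjusted p = 1.62e-05), with the control at 10.73 ± 0.37 (SD, n = 3). The spalt genes salm and salr and the Iroquois gene mirr rose by 3.84-, 3.05- and 2.71-fold, with salm at 11.13, 11.06 and 11.08 with bskDN against 8.76, 9.06 and 9.63 without it (adjusted p = 0.00175). Dll, the master gene of distal appendages, was not called (0.65 ± 0.28, adjusted p = 0.245). Among 17 eye field genes, Lim1 (1.54 ± 0.17), oc (1.18 ± 0.13) and pnr (1.13 ± 0.08), which mark the antennal, ocellar and dorsal head parts of the disc, were higher, and Optix, a homeobox gene of the retina, was lower at 8.47, 8.71 and 8.81 with bskDN against 9.75, 9.79 and 10.09 without it (-1.21 ± 0.14, adjusted p = 0.00086). The retinal genes eya and so were higher on every array with bskDN but their changes stayed under 1 (0.72 ± 0.09 and 0.75 ± 0.11), and ey had a change of -0.78 ± 0.19 (adjusted p = 0.0353). TfAP-2, a transcription factor of leg and antennal development that was on no list but among the 15 largest rises, gave 10.32, 10.73 and 10.19 in scrib-+RasACT+bskDN discs and 6.10, 7.04 and 7.11 in scrib-+RasACT discs (3.66 ± 0.29, adjusted p = 0.000136).

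**Figure D4:**
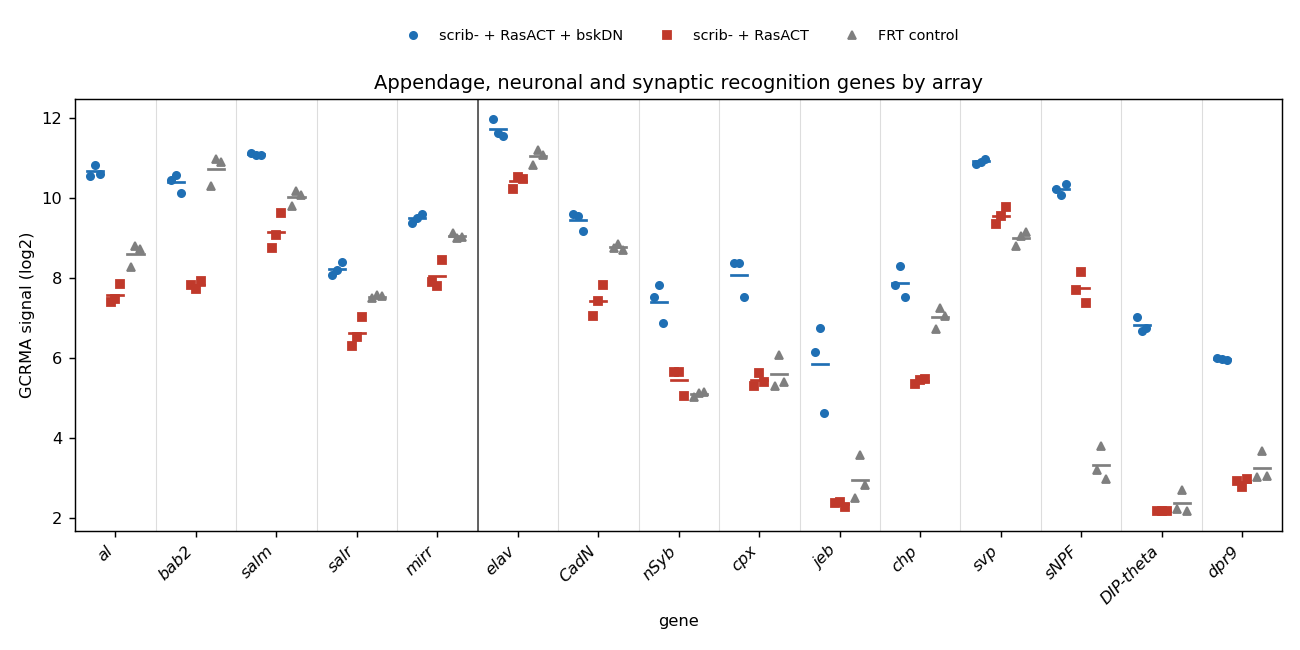
GCRMA signals (log2, vertical axis) of 5 appendage genes (left of the dark line) and 10 neuronal, neuropeptide or cell recognition genes, one gene per column. Points are single arrays and bars group means for scrib-+RasACT+bskDN, scrib-+RasACT and the FRT control. The 3 arrays with bskDN lay above the 3 without it in every column, as for al at 10.55, 10.83 and 10.60 with bskDN against 7.39, 7.48 and 7.84 without it. The genes shown were picked from those called higher, and 19.1% of all 18766 probe sets had no overlap in either direction.

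Of 30 photoreceptor and neuronal genes measured, 13 were higher and 0 lower, with a median of 1.03. The count was 16 without scrib-+RasACT replicate 3 and 7 on the 6 Ras arrays alone, where gl, nSyb, jeb, sev and nrv3 did not pass (adjusted p = 0.0549, 0.0733, 0.0736, 0.103 and 0.0651). elav, the RNA-binding protein that marks every differentiated neuron, gave 11.97, 11.63 and 11.54 in scrib-+RasACT+bskDN discs and 10.22, 10.53 and 10.48 in scrib-+RasACT discs, a change of 1.30 ± 0.13 (adjusted p = 0.000374), with the control between them at 11.03 ± 0.20 (SD, n = 3). gl (glass), which commits cells to the photoreceptor fate, gave 11.93, 12.13 and 11.86 with bskDN against 10.35, 10.77 and 10.98 without it (adjusted p = 0.00451), and svp, a nuclear receptor of outer photoreceptors, 10.84, 10.90 and 10.98 with bskDN against 9.34, 9.54 and 9.76 without it (adjusted p = 0.00248). The homophilic adhesion gene CadN, used by photoreceptor axons, gave 9.61, 9.54 and 9.17 in scrib-+RasACT+bskDN discs and 7.06, 7.41 and 7.81 in scrib-+RasACT discs (2.01 ± 0.21, adjusted p = 0.000592). Genes of the synapse were among them: cpx (complexin) gave 8.37, 8.38 and 7.51 in scrib-+RasACT+bskDN discs and 5.30, 5.62 and 5.40 in scrib-+RasACT discs (2.64 ± 0.26, adjusted p = 0.000393), and nSyb, the synaptic vesicle SNARE, 7.52, 7.83 and 6.86 with bskDN against 5.66, 5.66 and 5.04 without it (1.95 ± 0.26, adjusted p = 0.00215). jeb, a ligand of the Alk receptor, was at 6.16, 6.75 and 4.64 with bskDN and close to the floor without it, at 2.37, 2.40 and 2.27 (3.50 ± 0.44, adjusted p = 0.00148). chp (chaoptin), a photoreceptor membrane protein, gave 7.82, 8.30 and 7.52 with bskDN against 5.34, 5.45 and 5.47 without it (adjusted p = 0.00267). Of the 13 calls, which also included sev (1.36), rdo (1.15) and nrv3 (1.34), 2 were lost when single Ras arrays were left out, fne without scrib-+RasACT+bskDN replicate 1 (adjusted p = 0.0536), 2 (0.0555) or scrib-+RasACT replicate 2 (0.0597), and pros without scrib-+RasACT+bskDN replicate 1 (0.0558) or 2 (0.0594).

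The Dpr, DIP, Beat and Side families, immunoglobulin proteins by which neurons recognise their partners, had 7 of 51 members higher and 0 lower. The share over all named genes was 2.95% higher and 2.27% lower. Of the 51, 6 had a mean over 6 log2 in either group. DIP-theta was at 7.01, 6.68 and 6.75 with bskDN and on the floor without it, at 2.17, 2.18 and 2.17 (4.64 ± 0.07, adjusted p = 1.01e-08). dpr9 gave 5.99, 5.97 and 5.94 with bskDN against 2.93, 2.78 and 2.98 without it (adjusted p = 1.63e-06), and dpr19 8.89, 8.71 and 8.35 with bskDN against 5.68, 6.43 and 6.01 without it (adjusted p = 0.000415). The neuropeptide gene sNPF gave 10.22, 10.08 and 10.34 in scrib-+RasACT+bskDN discs and 7.71, 8.15 and 7.37 in scrib-+RasACT discs (2.47 ± 0.22, adjusted p = 0.00026), both far above the control at 3.32 ± 0.44 (SD, n = 3), and Nplp1 gave 9.55, 9.72 and 9.002 with bskDN against 6.20, 6.88 and 7.31 without it (adjusted p = 0.00549). In the list of brain and glia markers 3 of 14 were higher and 1 lower, with 1 higher without scrib-+RasACT+bskDN replicate 1 and 0 on the 6 Ras arrays alone. The neuroblast genes mira and dpn rose by 1.35 ± 0.23 and 1.02 ± 0.13 (adjusted p = 0.00656 and 0.00184), although mira did not pass on the 6 Ras arrays alone (adjusted p = 0.0965), insc was 4.83-fold lower (-2.27 ± 0.31, adjusted p = 0.00217), and the glial genes loco and nrv2 had changes of -0.25 and -0.13. The call of dpn was lost, as its change then fell under 1, without scrib-+RasACT+bskDN replicates 1 or 3 or scrib-+RasACT replicates 1 or 2 (adjusted p = 0.00792 to 0.0097, changes of 0.94 to 0.998).

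Of 25 genes of the ecdysone response, the steroid programme that ends larval life, 5 were higher and 0 lower. Over all named genes 2.95% were higher and 2.27% lower. The list had 3 higher without scrib-+RasACT replicate 2, scrib-+RasACT+bskDN replicate 2 or any 1 scrib-+NACT+bskDN array. Eip78C, an ecdysone-induced nuclear receptor, gave 5.59, 6.30 and 5.63 in scrib-+RasACT+bskDN discs and 3.23, 3.23 and 2.75 in scrib-+RasACT discs (2.77 ± 0.27, adjusted p = 0.000393), still below the control at 7.13 ± 0.95 (SD, n = 3). Eip93F, a factor of later stages of the cascade, was at 5.27, 5.34 and 4.75 with bskDN and near the floor without it, at 2.36, 2.31 and 2.39, and in the control (mean 2.62), a change of 2.76 ± 0.13 (adjusted p = 1.02e-05). ImpL1 gave 7.45, 7.36 and 6.22 with bskDN against 4.91, 4.83 and 5.06 without it (adjusted p = 0.0021), but did not pass on the 6 Ras arrays alone (adjusted p = 0.0845) or with all 21 arrays (adjusted p = 0.0602). br (broad), an early ecdysone-response factor, gave 13.19, 13.19 and 13.12 with bskDN against 11.46, 11.70 and 12.64 without it, a call (1.23 ± 0.29, adjusted p = 0.0313) that ended without scrib-+RasACT+bskDN replicates 1, 2 or 3, scrib-+RasACT replicates 1 or 2 or scrib-+NACT+bskDN replicates 1, A or B (adjusted p = 0.0521 to 0.114, changes of 0.997 to 1.26). The call of Hr4 (1.08 ± 0.28) ended without scrib-+RasACT+bskDN replicate 2, scrib-+RasACT replicates 1, 2 or 3, scrib-+NACT+bskDN replicates 1, A or B or scrib-+NACT replicates 1, 2 or A (adjusted p = 0.0025 to 0.129, changes of 0.69 to 1.10). The sex determination gene dsx rose, at 8.47, 9.15 and 8.62 with bskDN against 6.25, 7.03 and 6.62 without it (adjusted p = 0.00323), and the other 5 genes of the sex list were not called in limma through the probe set that stands for each (1 had an unadjusted p under 0.05). Of these fru, a transcription factor of male courtship, had 3 further probe sets that were called lower, at -1.50, -1.55 and -1.56 (adjusted p = 0.000238, 0.00173 and 0.00102).

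The 15 largest rises began with genes that were at the floor without bskDN. CG15756 gave 8.99, 9.37 and 8.52 in scrib-+RasACT+bskDN discs and 2.22, 2.22 and 2.22 in scrib-+RasACT discs, CG15005 8.92, 9.06 and 8.25 with bskDN and 2.17 on each array without it, and the lipase gene Lip1 7.61, 7.85 and 7.85 with bskDN and 2.17 on each array without it. Their changes of 6.74 ± 0.26, 6.57 ± 0.17 and 5.59 ± 0.06 depend on the floor. CG34007, CG4168, CG2269 and CG17270, also known by number alone, rose by 4.43, 4.07, 3.84 and 3.15 on the log2 scale. kat-60L1, a microtubule-severing protein used in neurons, gave 8.42, 8.76 and 8.32 in scrib-+RasACT+bskDN discs and 4.85, 5.64 and 4.96 in scrib-+RasACT discs (3.35 ± 0.22, adjusted p = 5.16e-05). The others were blanks (3.60 ± 0.23), nolo (3.28 ± 0.43) and Sidpn (3.05 ± 0.16), with nolo at 11.09, 11.39 and 10.46 with bskDN against 7.65, 7.65 and 7.80 without it.

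The counts for signalling pathways, growth machinery and polarity genes stand beside 5.22% called over all named genes. In limma 0 of 26 cell cycle and replication genes were called (11 had an unadjusted p under 0.05), with changes between -0.72 and 0.47. Likewise 0 of 22 polarity and junction genes, 0 of 17 genes of glycolysis and hypoxia, 0 of 15 genes of the Wnt, Hedgehog and Dpp pathways and 0 of 41 ribosomal protein genes were called, of which 9, 13, 9 and 11 had an unadjusted p under 0.05 in the order given. The mitochondrial ribosomal proteins, with 0 of 69 called in limma and 23 under an unadjusted p of 0.05, had changes of mostly 1 sign: 62 were below 0 and 7 above, with a median of -0.25. In the Ras-EGFR list 2 of 19 were higher, the feedback inhibitors sty (sprouty) and kek1. sty gave 13.10, 12.85 and 13.002 in scrib-+RasACT+bskDN discs and 11.67, 12.02 and 12.23 in scrib-+RasACT discs (1.01 ± 0.16, adjusted p = 0.00488), both groups above the control at 10.87 ± 0.16 (SD, n = 3), and kek1 changed by 1.04 ± 0.21 (adjusted p = 0.0161). Both calls lay close to the size threshold, and that of sty ended, as its change fell under 1, without scrib-+RasACT+bskDN replicates 1 or 3 or scrib-+RasACT replicate 1 (adjusted p = 0.0127 to 0.0217, changes of 0.86 to 1.000). That of kek1 ended without scrib-+RasACT+bskDN replicates 2 or 3 or scrib-+RasACT replicates 1 or 2 (adjusted p = 0.0567 to 0.0635, changes of 0.91 to 1.02). The Notch pathway list had neur (1.23 ± 0.21, adjusted p = 0.00598, or 0.0875 on the 6 Ras arrays alone), E(spl)malpha-BFM (1.12 ± 0.11) and nvy (1.06 ± 0.25) higher and 0 of 21 lower, of which nvy lost its call without scrib-+RasACT+bskDN replicates 1 or 2, scrib-+RasACT replicates 1, 2 or 3, scrib-+NACT+bskDN replicate B or scrib-+NACT replicate 2 (adjusted p = 0.051 to 0.108, changes of 0.99 to 1.16). klu, which regulates cell death in the retina, was the single call among 16 cell death genes, at 8.04, 7.42 and 7.70 with bskDN against 5.14, 5.88 and 6.37 without it (adjusted p = 0.00344). It did not pass on the 6 Ras arrays alone (adjusted p = 0.0985), and 0 of the 16 were higher there or with the mean over each gene's probe sets.

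The position of the FRT control relative to the called genes was described without a test. For 287 of the 334 probe sets that were lower with bskDN (85.9%) the control mean was nearer to scrib-+RasACT+bskDN than to scrib-+RasACT, and for 157 it was below both. For the 456 that were higher it was nearer to scrib-+RasACT+bskDN in 209 (45.8%), between both groups in 255, above both in 111 and below both in 90. The lower of the 2 group means was under 3 log2 for 40 of the falls and 64 of the rises.

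The same block was set beside that in Notch-driven tumours. In scrib-+NACT+bskDN against scrib-+NACT discs, which share no array with the Ras groups, 1006 probe sets were called (5.36%): 701 were lower (3.74%) and 305 higher (1.63%). Among named genes 803 were called there (6.70%), 582 lower (4.86%) and 221 higher (1.84%). Of the 334 falls in Ras discs 214 were also lower in Notch discs (64.1% of the Ras falls and 30.5% of the Notch falls), and 5 were higher. Of the 456 rises 89 were also higher (19.5% of the Ras rises and 29.2% of the Notch rises), and 79 were lower. The difference between both changes, tested as an interaction in the same fit, was called for 847 probe sets (4.51%), 229 with a more negative (1.22%) and 618 with a more positive change in Ras discs (3.29%). A further quantile normalization moved this split to 427 and 529, and that of the Notch probe sets to 599 lower and 425 higher. Among named genes it was called for 668 (5.58%), 177 negative (1.48%) and 491 positive (4.10%). The difference was called for 105 of the 334 falls (31.4%) and 300 of the 456 rises (65.8%).

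**Figure D5:**
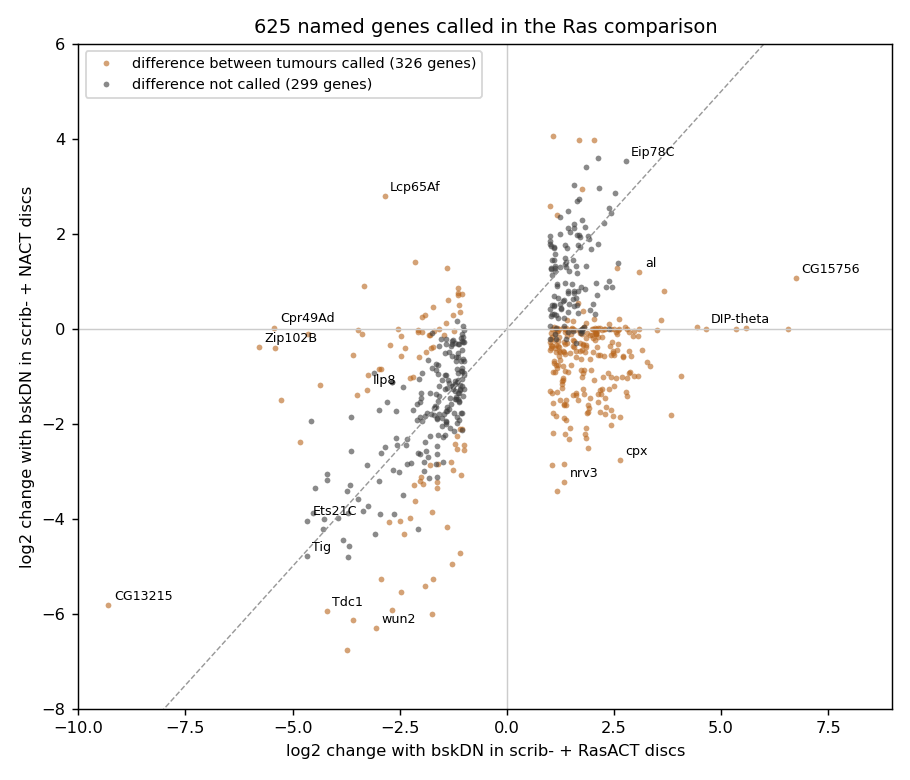
Log2 change with bskDN in scrib-+RasACT discs (horizontal axis) and in scrib-+NACT discs (vertical axis) for the 625 named genes called in the Ras comparison, one point per gene. Colours mark the 326 genes whose difference between both tumours was called and the 299 where it was not, and the dashed line is equality. Of the 272 falls 89 have a called difference, and of the 353 rises 237.

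Of the shared falls, Ets21C changed by -4.04 and Tig by -4.78 in Notch discs, and their differences of -0.63 ± 0.27 and 0.11 ± 0.28 were not called (adjusted p = 0.26 and 1). cher likewise changed by -1.66 there (difference -0.05 ± 0.30, adjusted p = 1). Other differences were called. Ilp8 and upd1 had changes of -1.28 and -0.84 in Notch discs, less than in Ras discs, with differences of -1.99 ± 0.15 and -2.09 ± 0.27 (adjusted p = 0.000136 and 0.0024, with that of Ilp8 lost when all 21 arrays were fitted, at 0.192), whereas wun2, wun and Pvf1 changed by -6.30, -2.86 and -4.06, more than in Ras discs (differences 3.24, 1.07 and 1.30, adjusted p = 5.32e-05, 0.00342 and 0.0424). The difference of Pvf1 was lost without scrib-+RasACT+bskDN replicate 1, scrib-+RasACT replicates 1 or 2, scrib-+NACT+bskDN replicates 1, A or B or scrib-+NACT replicates 1, 2 or A (adjusted p = 0.0715 to 0.101, differences of 1.24 to 1.33), and that of wun without scrib-+NACT replicate A, where its size fell under 1 (adjusted p = 0.01). Of the 6 largest differences in the negative direction, Zip102B and GstD3 had Notch means of 8.66 and 8.19 with bskDN against 9.05 and 9.68 without it (differences -5.39 and -3.78), CG6753 was low in both Notch groups (mean 2.43 with bskDN and 2.82 without it, difference -5.005), and Lcp65Af was higher with bskDN there, by 2.79 (difference -5.64). The other 2 were obst-E (-4.25), a chitin-binding protein of the cuticle, and retinin (-4.17), which had changes of -3.34 and 0.47 in Ras and 0.91 and 4.65 in Notch discs. The largest positive differences were those of Fbp2 (10.80), CG34166 (10.07) and CG2233 (7.53). In the Ras discs these genes were high on scrib-+RasACT+bskDN replicates 2 and 3 and low on replicate 1: CG34166 gave 6.15, 12.21 and 11.87 with bskDN and 5.25, 4.60 and 4.88 without it. In Notch discs these genes were lower with bskDN, which is also part of the differences. The difference of CG34166 was lost without scrib-+RasACT+bskDN replicates 2 or 3, scrib-+RasACT replicates 1 or 2, scrib-+NACT+bskDN replicates 1, A or B or scrib-+NACT replicates 2 or A (adjusted p = 0.0611 to 0.0762, differences of 9.002 to 10.24), and that of CG2233 without scrib-+RasACT+bskDN replicates 2 or 3, scrib-+RasACT replicates 1, 2 or 3, scrib-+NACT+bskDN replicates 1, A or B or scrib-+NACT replicates 2 or A (adjusted p = 0.0572 to 0.116, differences of 6.56 to 7.64). CG15756 (5.67), CG2269 (5.65) and cpx (5.41) followed. Of the rises, elav had a change of -0.78, CadN of -0.18 and nrv3, a subunit of the neuronal sodium pump, of -3.23 in Notch discs, and all 3 differences were called (2.08, 2.20 and 4.58). cpx changed by 2.64 in Ras and -2.76 in Notch discs. In the photoreceptor and neuronal list as a whole, 0 genes were higher and 10 lower in Notch discs, and the difference was called for 18 of 30. Markers of other tissues were lower in Notch discs too, beside 4.86% lower over all named genes. Of the muscle markers 9 of 12 were lower there and of the haemocyte markers 11 of 18, with medians of -3.77 and -2.91. In the brain and glia list 4 of 14 were lower and 1 higher. The part of these tissues in the differences between both tumours was not tested. The JNK response list had 10 of 17 genes lower in Notch discs. Eip78C was higher in both, by 2.77 in Ras and 3.53 in Notch discs (difference -0.76 ± 0.39, adjusted p = 0.375), and bab2 and pnr also rose in both (1.27 and 1.33 in Notch discs).

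Where a gene had several probe sets, their calls did not conflict. Of 131 genes with more than 1 probe set and at least 1 call in the Ras comparison, 32 had at least 2 called, and in 0 were they called in both directions. Besides ftz-f1 and fru, 5 list members were called through a probe set other than the one that stands for the gene, so the list counts leave them out. These were Traf4 (1.26, adjusted p = 0.00142), Cbl (2.44, adjusted p = 0.00322), brp (2.07, adjusted p = 0.02), ImpE1 (3.89 and 4.004, adjusted p = 0.000343 and 5.44e-05) and dl (-2.42, adjusted p = 0.000975).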

How the data were processed

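RNA of mosaic eye-antennal discs was hybridised to Affymetrix Drosophila 2.0 arrays, 1 per sample. The authors deposited log2 values, 1 for each probe set and array, that GCRMA had corrected for background, quantile-normalized and summarised over probes. Which arrays were normalized together, and the GCRMA version, are not given in the sources used here. Of 18952 probe sets, 183 control probe sets and 3 of bsk were left out, leaving 18766. Of these 13643 had 1 gene symbol in the platform annotation, 402 several and 4721 none, and a gene was read from its probe set with the highest mean. Arrays carry no read depth, so their number (3 per group) limits the precision.

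The Ras and Notch groups (12 arrays) were fitted together in limma 3.58.1 (R 4.3.3) without a replicate block, with the change in Ras discs, that in Notch discs and their difference as contrasts. A call needed a Benjamini-Hochberg adjusted p under 0.05 and a log2 change over 1. The fit was run on simulated data with independent normal noise. These had no floor and no array that stood apart, so they do not test those features. Named genes were the targeted genes, the 15 largest falls and rises with a higher mean of at least 6 log2 and no overlap, the JNK lists in full, up to 6 called members of any other list (up to 4 by level for markers) and the 6 largest differences each way. The members and lists were chosen with earlier results of these data known. Alternatives were a replicate block, other variance models, array weights, further quantile normalization, a filter on low values, other sets of arrays, leaving out each array, and the mean over a gene's probe sets.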

Additional observations from a re-analysis of the deposited data

Results flagged for a closer look

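The change with bskDN differed between Ras and Notch tumours for 847 probe sets by the interaction term in limma. Among the genes described above, the secreted signals went both ways: Ilp8 (-1.99, a call lost when all 21 arrays were fitted) and upd1 (-2.09) had a more negative change in Ras discs, and Pvf1 (1.30) a less negative one. The change was also more negative in Ras discs for Zip102B (-5.39), GstD3 (-3.78), CG6753 (-5.005), Lcp65Af (-5.64) and obst-E (-4.25). For retinin (-4.17) the change was positive in both tumours and smaller in Ras discs, where it was not called. The difference was positive for the migration genes wun2 (3.24) and wun (1.07) and for the stress-response factor Atf3 (2.68). It was also positive for the neuronal genes elav (2.08), CadN (2.20), nrv3 (4.58) and cpx (5.41) and for CG15756 (5.67) and CG2269 (5.65). For Fbp2 (10.80), CG34166 (10.07) and CG2233 (7.53) the difference was positive as well. These are the genes that were high on 2 of the 3 scrib-+RasACT+bskDN arrays, and they were lower with bskDN in Notch discs. The part of other tissues in the differences between both tumours was not tested. No array was tested as an outlier, because the groups hold 3 arrays each.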

How the results depend on the processing

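No named gene's called change reversed under the alternatives run, but the migration and guidance list, with 4 genes lower and 2 higher, had 4 lower and 6 higher without scrib-+RasACT replicate 3. The 790 calls of the Ras comparison became 422 on the 6 Ras arrays alone and ranged from 650 to 972 when single arrays were left out. The Notch comparison ranged from 859 to 1182 and the difference from 670 to 1069 in the same way, and array weights raised the difference to 1291. With the replicate number as a block the counts were 164 in Ras discs, 214 in Notch discs and 61 for the difference. That block left a median of 3 degrees of freedom per probe set, so fewer calls could pass. A block on the Ras arrays alone, chosen after the data were seen, left 6 and gave 775 in Ras discs. Whether the numbers pair the samples is not known. The deviations of same-numbered Ras arrays from their group means correlated at -0.18, 0.01 and -0.18, and Notch arrays were not checked. With so few arrays per group these correlations cannot decide it. The mean of the poly-A control probe sets fell from replicate 1 to 3 in both Ras groups. It was 8.74, 7.53 and 7.38 with bskDN and 8.12, 7.84 and 7.18 without it. Further quantile normalization moved the share of calls that were higher to 41.5% from 30.3% in Notch discs and to 55.3% from 73.0% for the difference. The genes named above or below and called in Ras discs number 120, which includes those picked after their values were seen. Of the 120, 81 kept their call under all 18 alternatives without a block, 39 lost it under at least 1, and 66 lost it with the block. Of the calls of list members, those of the photoreceptor and neuronal list ranged from 11 to 16 genes when single arrays were left out, and the falls of the JNK response stayed at 7, with 1 rise without scrib-+RasACT replicate 3. The values at the floor (2.17 log2) set a limit: a change against a group there is measured on 1 side only, and how GCRMA's background correction sets it was not tested.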

Other observations

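Genes outside the lists were looked at after their values were seen, and the following is a description. Several further genes of synaptic transmission were higher with bskDN in Ras discs. Syn (synapsin), which tethers synaptic vesicles, gave 5.57, 5.46 and 4.88 in scrib-+RasACT+bskDN discs and 2.58, 2.59 and 2.60 in scrib-+RasACT discs. cac, the pore subunit of the presynaptic calcium channel, gave 7.16, 7.08 and 6.60 with bskDN and 4.23, 3.95 and 5.38 without it, and stj, its accessory subunit, 5.94, 6.17 and 5.18 with bskDN and 3.12, 3.58 and 3.42 without it. In both genes the groups did not overlap, as was so for 19.1% of all 18766 probe sets. Rab3, Rph and Cadps, which act in vesicle release, had changes of 2.19 ± 0.27, 2.54 ± 0.34 and 1.34 ± 0.25, and tau, a microtubule protein of axons, 1.83 ± 0.40 (adjusted p = 0.00132, 0.00214, 0.00951 and 0.0215). Nrx-1 (neurexin) and DAT, the dopamine transporter, changed by 2.18 ± 0.25 and 2.48 ± 0.31 (adjusted p = 0.000904 and 0.00138). The call of tau ended without scrib-+RasACT+bskDN replicates 1 or 2 or scrib-+RasACT replicates 1 or 2 (adjusted p = 0.0533 to 0.0813, changes of 1.69 to 1.94), and those of cac, Cadps, Nrx-1 and DAT were not made on the 6 Ras arrays alone (adjusted p = 0.0845, 0.0639, 0.0524 and 0.0516).

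Among genes that were lower, Tdc1, a tyrosine decarboxylase of non-neural tissue, gave 7.44, 7.16 and 7.13 in scrib-+RasACT+bskDN discs and 11.20, 11.36 and 11.79 in scrib-+RasACT discs (-4.21 ± 0.22, adjusted p = 1.76e-05), and the control averaged 7.45 ± 1.63 (SD, n = 3). yellow-b, of the yellow family, gave 7.85, 7.76 and 7.80 with bskDN and 11.49, 11.49 and 11.56 without it (-3.71 ± 0.22, adjusted p = 3.14e-05). y (yellow), needed for black pigment, was at the floor with bskDN (2.18, 2.18 and 2.18) and at 5.16, 6.21 and 5.55 without it. Tsf1 (transferrin), which carries iron in the haemolymph and is made by the fat body, gave 7.65, 6.98 and 8.04 in scrib-+RasACT+bskDN discs and 10.40, 10.46 and 10.62 in scrib-+RasACT discs (-2.94 ± 0.38, adjusted p = 0.00167). Its signal was lower on all 3 arrays with bskDN, and the part of fat body tissue in this was not tested.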
